A study of Rattus norvegicus with 14 samples.

Results

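RNA was compared between PCCL3 cells that stably express the PAX8-PPARG fusion protein (PPFP cells) and PCCL3 cells that carry the empty vector (EV cells), both kept without the PPARG ligand pioglitazone. PCCL3 is a rat thyroid follicular cell line that still makes thyroglobulin and takes up iodide, and it was grown here with thyrotropin, insulin and hydrocortisone. The fusion protein was human, with a triple Myc tag at its N-terminus, and both lines received the DMSO vehicle for 16 h. Each group had 3 libraries from independent experiments, and 10264 of the 16816 genes in the table of read counts passed the filter on low counts and make up the comparison. The same series holds 6 further RNA libraries from the same lines with pioglitazone, which serve here only as a second set of libraries for the chromosome values below. Each construct is represented by 1 line, and whether that line was a clone or a pool of transfected cells is not given in the sources used here. The p-values therefore measure the spread between cultures of these lines, and an effect of the fusion protein cannot be told apart from other differences between the lines.

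PAX8 is a paired-domain transcription factor that thyroid follicular cells need to form and to express the genes of hormone synthesis, among them thyroglobulin and the sodium-iodide symporter. PPARG is a nuclear receptor that pairs with a retinoid X receptor, binds fatty acids and thiazolidinedione drugs, and directs the genes of fat storage and fat burning in adipocytes. In follicular thyroid carcinoma a translocation joins the genes, and the fusion protein keeps the DNA-binding domains of both parents. The fusion protein can thus meet PAX8 targets and PPARG targets in one cell, and the comparison without drug shows the state of both kinds of gene before any added ligand.

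The deposited counts summed to between 23724703 and 29182499 reads per library. Values below are CPM, the reads of a gene relative to the library total after TMM scaling, given for libraries 1, 2 and 3 of each group, and a log2 fold change is PPFP over EV with its standard error (SE). A gene is called higher or lower, or is said to have risen or fallen, at an adjusted p below 0.05 in edgeR's quasi-likelihood test, whatever its fold change, and a change above 2-fold is named as such. The groups parted on the first principal component (85.1% of the variance). The second, with 9.78%, set EV library 3 and PPFP library 1 apart from the other 4. Leaving both out gave 854 genes higher and 804 lower above 2-fold in place of 746 and 750. These 2 libraries were the high ones in the cell cycle list and the low ones in the amino acid stress list, as given with those lists. The 9 thyrocyte markers were all measured, with a summed level of 9938 to 13615 CPM in EV cells and 13620 to 14277 CPM in PPFP cells, most of it from Tg, while 5 of the 9 were lower, 2 higher and their median log2 fold change was -0.58. Of the defining markers of other cell types, Col1a2, Col3a1, Dcn, Lum, Pdgfrb and Postn (fibroblast), Ptprc and Itgam (leukocyte), Cdh5 (endothelium), and all 7 C cell markers were listed at 0 in all 6 libraries. The fibroblast markers, 2 of 9 of which could be tested, summed to 22.4 to 24.3 CPM in EV cells and 20.5 to 32.7 CPM in PPFP cells. The leukocyte markers, 2 of 9 tested, summed to 5.61 to 6.93 CPM and 4.36 to 6.01 CPM in the same order, and the endothelial markers, 1 of 7 tested, to 0.335 to 0.642 CPM and 0.703 to 1.47 CPM. In all, 3857 genes were listed at 0 in every one of the 6 libraries, and Gnas, whose stimulatory G protein every cell uses, was one of them, so a listed 0 does not show that a gene was silent.

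At an adjusted p below 0.05, 2259 genes (22.0%) were higher in PPFP cells and 2376 (23.1%) were lower. Above 2-fold there were 746 higher (7.27%) and 750 lower (7.31%), and the median over all tested genes was 0.0016 on the log2 scale. The large changes were many: 117 genes rose and 151 fell by more than 16-fold. Below 2-fold, 1513 genes rose and 1626 fell. Of all tested genes, 17 had no count in any EV library and 35 had none in any PPFP library. All PPFP libraries lay above all EV libraries for 2843 of the 10264 genes and below them for 2959. A lack of overlap, where given below for a gene, was thus common.

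Among genes with at least 0.5 CPM in every library, the highest fold change was that of Sult1b1, a sulfotransferase that acts on thyroid hormones, with 0.714, 0.675 and 1.04 CPM in EV cells and 155, 130.1 and 135 CPM in PPFP cells (log2 fold change 7.43, SE 0.17, adjusted p = 5.4e-07). No EV library came near the lowest PPFP library. Cfd, the serine protease adipsin of the alternative complement pathway and a classical adipocyte product, was at 9.86, 10.8 and 9.01 CPM in EV cells and 708, 735 and 721 CPM in PPFP cells (log2 fold change 6.19, SE 0.11, adjusted p = 3.1e-07). Il17rb, a receptor chain for interleukin 25, was at 10.2, 6.04 and 10.5 CPM in EV cells and 219, 194 and 199 CPM in PPFP cells (log2 fold change 4.52, SE 0.21, adjusted p = 7.3e-06). The groups did not overlap for either gene. The other genes among the 10 highest were Pparg, Ggt6, Psapl1, Adprhl1, Gbp5, Lgals9 and Hpgds, with log2 fold changes of 5.08, 4.98, 4.93, 4.79, 4.47, 4.45 and 5.04. Hpgds makes prostaglandin D2, Gbp5 is an interferon-induced GTPase and Lgals9 is a galectin.

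The 10 lowest genes were of varied kinds. Nptx1, a neuronal pentraxin, was at 209, 236 and 189.6 CPM in EV cells and 4.11, 3.68 and 4.05 CPM in PPFP cells (log2 fold change -5.74, SE 0.13, adjusted p = 5.4e-07). Gcg, which encodes proglucagon, was at 265, 191 and 425 CPM in EV cells and 9.4, 6.95 and 6.38 CPM in PPFP cells (log2 fold change -5.27, SE 0.34, adjusted p = 2.5e-05). Both were readily counted in every EV library and stayed below 10 CPM in every PPFP library. Sema6b, a transmembrane semaphorin, was at 27, 24.3 and 24.6 CPM in EV cells and 0.814, 0.902 and 0.604 CPM in PPFP cells (log2 fold change -5.01, SE 0.17, adjusted p = 2.9e-06). Cacna2d2, an auxiliary calcium channel subunit, was at 45.9, 40.7 and 44 CPM in EV cells and 1.15, 2.59 and 2.72 CPM in PPFP cells (log2 fold change -4.35, SE 0.27, adjusted p = 2.2e-05). In all 4 cases the highest PPFP library lay far below the lowest EV library. Adam19, a membrane metalloproteinase, varied among EV cells at 96.2, 167 and 48.8 CPM and was at 1.29, 1.2 and 1.29 CPM in PPFP cells (log2 fold change -6.36, SE 0.51, adjusted p = 7.4e-05). The remaining 5 of the 10 lowest were Piwil2, Sipa1l2, Matn4, Rcn3 and Col5a1.

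Some genes had counts in one line only. Ces2h, a carboxylesterase, had no count in EV cells and 2.7, 4.21 and 4.23 CPM in PPFP cells, at least 109-fold higher when the EV group is set to the floor of 3 counts. Lphn2 (latrophilin 2) was at least 45.5-fold higher on the same floor, Csmd1 at least 37.4-fold and Cav1, the coat protein of caveolae, at least 37-fold. In the other direction Sgcb, beta-sarcoglycan, was at 6.49, 5.44 and 4.86 CPM in EV cells and had no count in PPFP cells, at least 143-fold lower. Among the genes that changed by more than 2-fold, the one that gained most in its share of all counts was Fn1 (fibronectin), from 0.0244% to 0.241%, followed by Hsp90b1, an endoplasmic reticulum chaperone, from 0.164% to 0.379%. The genes that lost most were Ppp1r1b, an inhibitor of protein phosphatase 1, from 0.212% to 0.0973%, and Sulf2, a sulfatase that edits heparan sulfate, from 0.151% to 0.0473%. Slc5a5, the sodium-iodide symporter, was the fifth, from 0.116% to 0.0332%.

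The small changes were spread unevenly over the chromosomes. Of the tested genes, 10076 could be given a chromosome by their symbol or synonym in the RefSeq annotation of GRCr8. On chromosome 7 the median log2 fold change of 696 genes was 0.54 (quartiles 0.25 and 0.80), and 591 of the 696 (84.9%) had a positive value. Of these genes 448 (64.4%) were higher and 47 were lower, against 22.0% and 23.1% of all tested genes. The whole chromosome took part: when it was divided into 27 blocks of 25 neighbouring genes, the median was positive in all 27 blocks, between 0.13 and 0.95. Chromosome 7 held 23.5% of the 1513 genes that rose by less than 2-fold, although it held 6.91% of the placed genes.

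The opposite shift was seen on chromosome 3, where the median of 759 genes was -0.34 and 360 genes (47.4%) were lower against 75 higher. All 30 blocks of chromosome 3 had a negative median. Chromosome 5 had a median of -0.25 over 678 genes, with 270 lower and 71 higher, and 24 of its 27 blocks were negative. Chromosomes 14 and 15 had medians of -0.25 and -0.22. Chromosome 11 lay on the positive side at 0.20, and the other 15 chromosomes had medians between -0.14 and 0.13. Chromosomes 3 and 5 together held 28.7% of the 1626 genes that fell by less than 2-fold and 14.3% of the placed genes. The summary by chromosome was chosen after the data had been seen. The number of chromosomes in the lines was not analysed here, and its part in these shifts was not tested.

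The shift could be read in libraries that the comparison did not use. In the 3 PPFP and 3 EV libraries with pioglitazone, the median difference between the lines was 0.52 on chromosome 7, -0.33 on chromosome 3, -0.24 on chromosome 5, -0.22 on chromosome 14, -0.25 on chromosome 15 and 0.18 on chromosome 11. On these 6 chromosomes all 12 libraries fell on the side of their line. These are other cultures of the same lines, so the values show that the shift stayed with the line and do not separate the fusion protein from the history of the line. Within chromosome 7 the highest window of 25 adjacent genes, from Rasal3 to Pwp1, had a median of 0.95, and 18 of its genes were higher. The lowest window of any chromosome, from Stk4 to Eya2 on chromosome 3, had a median of -0.70, with 24 of 25 values negative.

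**Figure D1:**
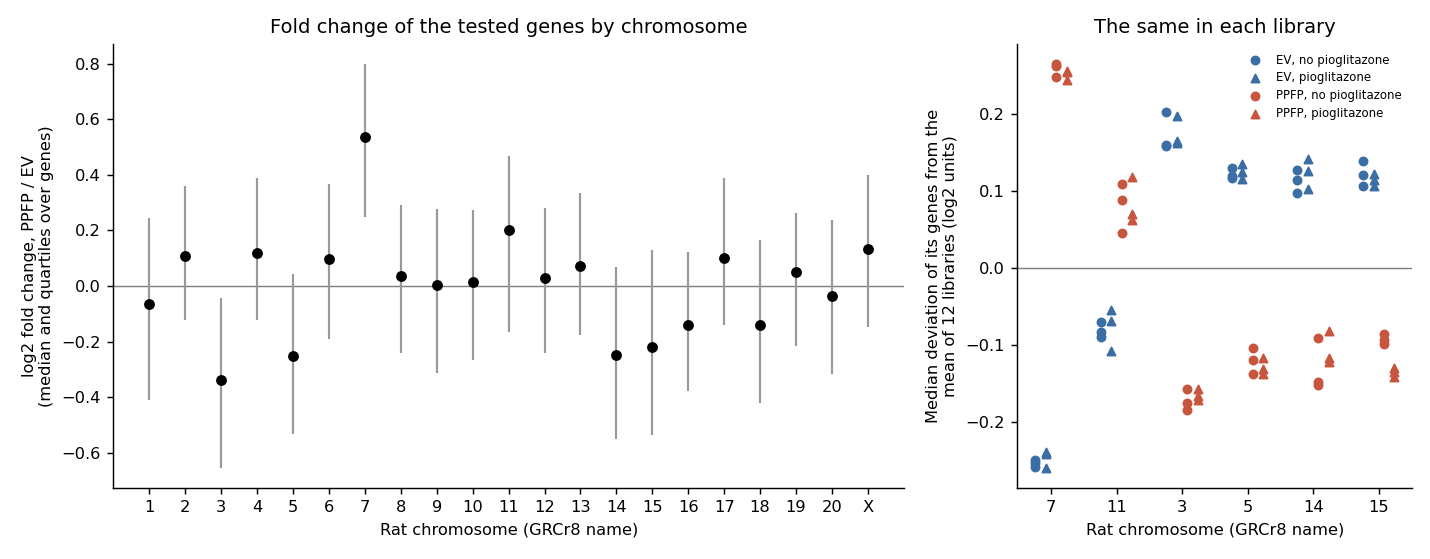
Left, median log2 fold change of the tested genes of each rat chromosome (points) with the lower and upper quartile (bars), PPFP over EV without pioglitazone. Right, for 6 chromosomes, the median deviation of their genes from the mean of 12 libraries in log2 units, 1 point a library, with circles for libraries without pioglitazone and triangles for those with it. Chromosome 7 stands at 0.54 and chromosome 3 at -0.34, and on each of the 6 chromosomes the libraries separate by line.

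Because of this shift, each list below was also counted in a fit that took every gene relative to the median of its chromosome. That fit, added after the data had been seen, gave 711 genes higher and 717 lower above 2-fold, and at any fold change 3920 genes in place of 4635. It changes what can be said of lists that are rich in small changes, and its counts are given beside some of them. Other lists moved as well, and these are examples. The higher members of the cell cycle list went from 9 to 6, the lower members of the antioxidant list from 7 to 4, and the higher and lower members of ribosome biogenesis from 3 and 3 to 2 and 0. The higher members went from 11 to 14 in the peroxisome list, from 7 to 5 in the Wnt list, from 8 to 6 in the amino acid stress list and from 2 to 1 in the FGF list. The lower members of the prostaglandin list went from 7 to 5. The plot of list medians gives all 40 lists of functions. The lists themselves were drawn up with earlier results of these data known, so their counts describe these libraries. They are read against the shares of all tested genes, 22.0% higher and 23.1% lower. A member with few or no counts in one line entered the test through the other line, so it could only be counted on that side.

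**Figure D2:**
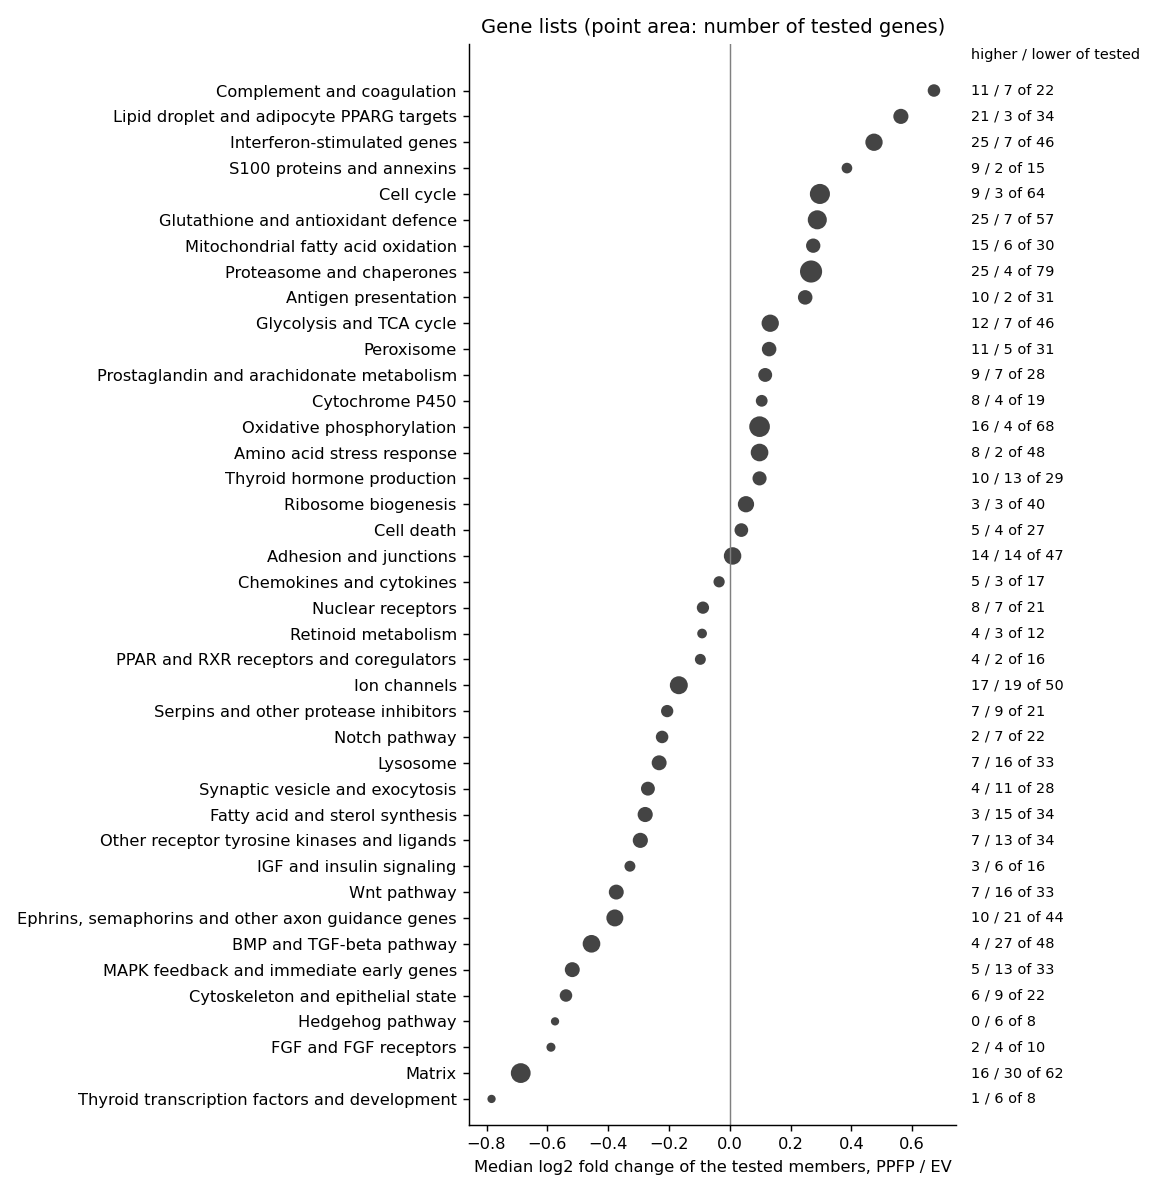
Median log2 fold change (PPFP over EV) of the tested members of 40 gene lists, with point area in proportion to the number of tested genes and, at the right, the number higher and lower at an adjusted p below 0.05 of the number tested. The lists with the highest medians are complement and coagulation, lipid droplet and adipocyte PPARG targets, and interferon-stimulated genes, and those with the lowest are thyroid transcription factors, matrix, and FGF and FGF receptors.

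The genes of the fusion's 2 parents were read first. Pparg was at 1.8, 1.82 and 1.21 CPM in EV cells and 47.1, 60.8 and 55.5 CPM in PPFP cells (log2 fold change 5.08, SE 0.19, adjusted p = 3.6e-06), a 33.8-fold difference with no overlap. Reads from the human fusion transcript that fit the rat gene cannot be told apart from rat Pparg reads in this table, so the value bears on the labels of the lines and not on the rat gene. Pax8 was at 697, 804 and 716 CPM in EV cells and 684, 717 and 694 CPM in PPFP cells (log2 fold change -0.08, SE 0.09, adjusted p = 0.47), and its groups overlapped. The fusion transcript carries PAX8 sequence too, so fusion reads may be counted in Pax8 as well, and its value is not that of the rat gene alone. Pax8 lies on chromosome 3, and relative to the median of that chromosome its log2 fold change was 0.25 with an adjusted p of 0.049. Of the 3 retinoid X receptors 1 fell, 1 rose and 1 did not pass. Rxra, the retinoid X receptor alpha, was at 21, 22.2 and 19.4 CPM in EV cells and 10.2, 8.64 and 8.67 CPM in PPFP cells (log2 fold change -1.18, SE 0.12, adjusted p = 0.00021). Rxrg, the gamma form, was at 0, 0.169 and 0.168 CPM in EV cells and 3.03, 3.72 and 2.76 CPM in PPFP cells (log2 fold change 4.76, SE 0.51, adjusted p = 0.00028). The PPFP libraries were thus all below the EV libraries for Rxra and all above them for Rxrg, while Rxrb, the beta form, overlapped between the groups with -0.35 (adjusted p = 0.12, and 0.0226 without EV replicate 3).

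Of the 16 measured receptors and coregulators of this family, 4 were higher (25%) and 2 were lower (12.5%), against 22.0% and 23.1% of all genes, and relative to chromosome medians 6 were higher and 3 lower. Ppard, the delta receptor, rose with a log2 fold change of 0.52 (SE 0.08, adjusted p = 0.0014), and Ppara, the alpha receptor, had -0.29 (adjusted p = 0.28). Nrip1, a corepressor that restrains energy expenditure in fat cells, was at 31.7, 40.9 and 35.5 CPM in EV cells and 79.3, 91.4 and 86.6 CPM in PPFP cells (log2 fold change 1.25, SE 0.11, adjusted p = 0.00014). Ppargc1a, the coactivator of mitochondrial biogenesis, was at 31.8, 48.9 and 23.6 CPM in EV cells and 13.1, 15.9 and 17.5 CPM in PPFP cells (log2 fold change -1.17, SE 0.26, adjusted p = 0.0082). The corepressor was higher and the coactivator lower in every PPFP library.

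The genes of thyroid hormone production did not move as one. Of 29 tested members 10 were higher and 13 were lower, with a median of 0.10 that was -0.05 relative to chromosome medians. In the iodide and hormone transport role 7 of 8 were lower. In the role of hormone precursor and enzymes 3 were higher and 3 lower of 8, in the TSH signaling role 3 of 7 were higher and 1 was lower, and in thyroglobulin breakdown 3 of 6 were higher and 2 lower.

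Slc5a5, which brings iodide into the follicular cell across the basal membrane, was at 1155, 1083 and 1150.0 CPM in EV cells and 305, 367 and 352 CPM in PPFP cells (log2 fold change -1.73, SE 0.10, adjusted p = 1.4e-05), a 3.31-fold loss. Slc26a7, an anion transporter that thyroid cells need for iodide handling, was at 13.4, 20.8 and 10.2 CPM in EV cells and 0.185, 0.113 and 0.216 CPM in PPFP cells (log2 fold change -6.41, SE 0.41, adjusted p = 2.4e-05). Slc26a4 (pendrin), which passes iodide to the follicle lumen, was the one transporter to rise, at 0.238, 0.101 and 0.067 CPM in EV cells and 1.7, 1.17 and 1.29 CPM in PPFP cells (log2 fold change 3.32, SE 0.43, adjusted p = 0.00067). All 3 showed no overlap between groups, and the level of Slc26a4 in PPFP cells remained between 1 and 2 CPM. Ano1, a chloride channel that also conducts iodide, fell by 1.76-fold (adjusted p = 0.00029). Kcne2, a potassium channel subunit that supports iodide uptake, had a log2 fold change of -1.24 (adjusted p = 0.019, and 0.0558 without PPFP replicate 1 and 0.0516 without PPFP replicate 3). Slc5a8 and Clcn5 were lower as well, with log2 fold changes of -0.74 and -0.85.

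Tg, the precursor protein on which hormone is built, was at 10093, 9939.5 and 6499 CPM in EV cells and 11855, 12214 and 11619 CPM in PPFP cells (log2 fold change 0.43, SE 0.17, adjusted p = 0.074). Every PPFP library was above every EV library, yet the difference did not pass, and EV library 3 was well below the other EV libraries. Without EV replicate 3 the log2 fold change was 0.25 and passed with an adjusted p of 0.0388. Tg lies on chromosome 7, and relative to the median of that chromosome its log2 fold change was -0.11 (adjusted p = 0.651), so its direction depends on that step. Iyd, which recovers iodide from unused iodotyrosines, was at 2.92, 4.12 and 3.32 CPM in EV cells and 1.33, 1.35 and 1.25 CPM in PPFP cells (log2 fold change -1.39, SE 0.21, adjusted p = 0.0012). Dio1, which removes iodine from thyroxine, fell with a log2 fold change of -0.44 (adjusted p = 0.0090), which became -0.19 and did not pass (adjusted p = 0.182) relative to the median of its chromosome.

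The hydrogen peroxide generator of the thyroid went the other way. Duox2, the oxidase, was at 19.6, 16.9 and 21.5 CPM in EV cells and 94.6, 87.2 and 85.9 CPM in PPFP cells (log2 fold change 2.21, SE 0.11, adjusted p = 9.8e-06). Duoxa2, its maturation factor, was at 17.6, 17.1 and 20.9 CPM in EV cells and 93.5, 77.3 and 73.3 CPM in PPFP cells (log2 fold change 2.13, SE 0.13, adjusted p = 2.1e-05). The pair rose by a similar fold, 4.62 and 4.39, with all PPFP libraries above all EV libraries. Duoxa1 had a log2 fold change of 0.76 (adjusted p = 0.015, and 0.0613 without EV replicate 1), and Duox1 overlapped between groups at 0.20 (adjusted p = 0.24). All 4 genes lie on chromosome 3, whose median was negative, and relative to it Duox1 passed as well, with 0.53 and an adjusted p of 0.0125.

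The thyrotropin receptor Tshr was at 315, 348 and 298 CPM in EV cells and 557, 483 and 477 CPM in PPFP cells (log2 fold change 0.66, SE 0.10, adjusted p = 0.0014). Downstream of it Adcy6 (adenylate cyclase), with a log2 fold change of 0.48, and Pde4d (phosphodiesterase), with 0.42, passed, but relative to the medians of their chromosomes Adcy6 turned to -0.0535 (adjusted p = 0.761) and Pde4d did not pass (0.31, adjusted p = 0.0517). Adcy3, Prkar1a and Crem did not pass without that step. Creb1, the transcription factor that cyclic AMP activates, had -0.39 with an adjusted p of 0.032, and it no longer passed when any library but EV replicate 3 was left out (adjusted p 0.06 to 0.0879). Of the proteases that break thyroglobulin down, Ctsl1 was at 415, 589.7 and 514 CPM in EV cells and 1087, 1109 and 1238 CPM in PPFP cells (log2 fold change 1.18, SE 0.14, adjusted p = 0.00040) and Ctss rose with 3.17. Ctsd fell with -0.48, and so did Lrp2 (megalin), which takes thyroglobulin up, with -1.06. Ctsb was higher with 0.37 (adjusted p = 0.025, and up to 0.0895 with 1 library left out), and Lgmn did not pass at 0.13.

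Of 8 tested thyroid transcription factors 6 fell and 1 rose, with a median of -0.78. Foxe1, a forkhead factor that thyroid development depends on, was at 888, 903 and 843 CPM in EV cells and 152, 125 and 123 CPM in PPFP cells (log2 fold change -2.72, SE 0.11, adjusted p = 4.0e-06). Hhex, a homeobox factor that marks the thyroid primordium, was at 508, 478 and 564 CPM in EV cells and 231, 269.6 and 280.4 CPM in PPFP cells (log2 fold change -0.99, SE 0.11, adjusted p = 0.00028). Nkx2-1, the homeobox partner of PAX8, was at 352, 354 and 299 CPM in EV cells and 207, 240.2 and 226 CPM in PPFP cells (log2 fold change -0.58, SE 0.10, adjusted p = 0.0026). Losses thus ran from 1.49-fold for Nkx2-1 to 6.59-fold for Foxe1, with no overlap for any of the 3. Foxa2 was at 10.1, 9.42 and 9.48 CPM in EV cells and 1.92, 2.71 and 2.54 CPM in PPFP cells (log2 fold change -2.01, SE 0.17, adjusted p = 8.8e-05) and Klf9, a thyroid hormone target, fell by 2.39-fold (adjusted p = 0.00046). Hes1, the Notch target, had -0.58 (adjusted p = 0.023), which did not pass without EV replicate 1, EV replicate 2 or PPFP replicate 3 (adjusted p 0.0563 to 0.0701). Thrb, the beta thyroid hormone receptor, was the one member to rise, at 12.4, 10.9 and 9.51 CPM in EV cells and 29.4, 30.7 and 32.2 CPM in PPFP cells (log2 fold change 1.49, SE 0.12, adjusted p = 7.2e-05).

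**Figure D3:**
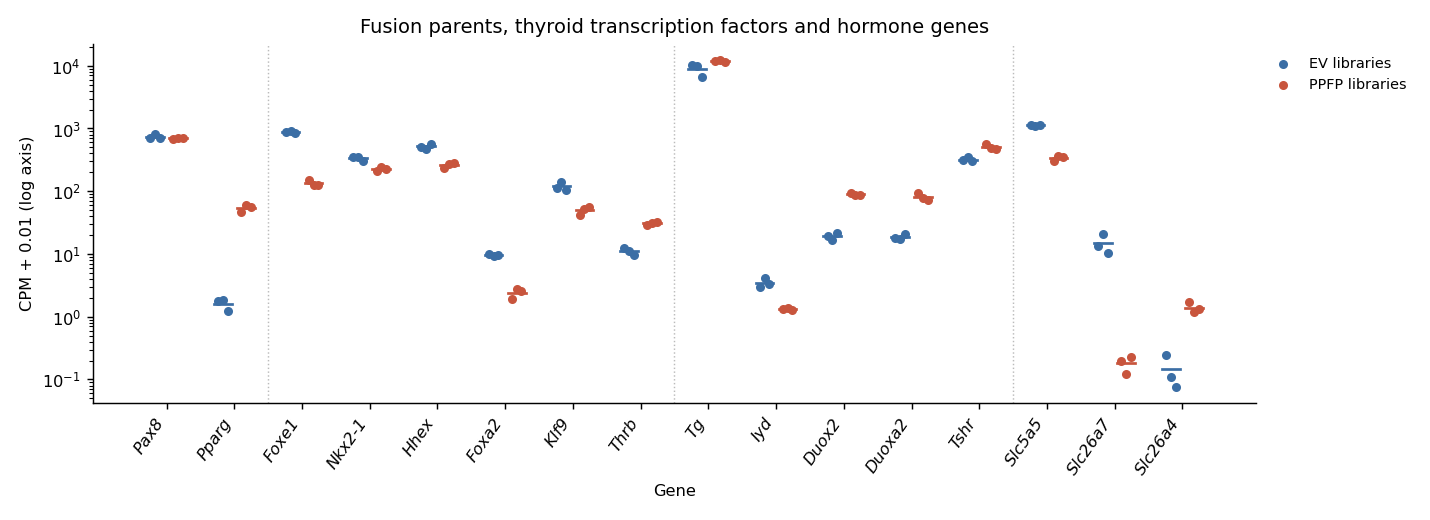
CPM of 16 genes in each library on a log axis, with 0.01 CPM added, 3 EV and 3 PPFP points a gene and a bar at the group mean, and dotted lines between the fusion parents, transcription factors, hormone genes and transporters. Pax8 overlaps between the groups, Pparg, Thrb, Duox2, Duoxa2, Tshr and Slc26a4 lie higher in PPFP cells, and Foxe1, Slc5a5 and Slc26a7 lie lower.

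The lipid genes that PPARG controls in adipocytes were mostly higher in PPFP cells with no pioglitazone added. Of 34 tested members of the list of lipid droplet genes and PPARG targets 21 were higher and 3 lower, with a median of 0.56, and relative to chromosome medians the counts were 19 and 4. Some of the higher members, among them Cidec, Plin1, Ucp1, Ucp3 and Cav1, had few or no counts in EV cells. They entered the test through PPFP cells and could only be counted as higher. Of 10 listed proteins of the lipid droplet coat 5 could be tested, and these rose by more than 2-fold, though Cidec and Plin1, with 5 counts each over the EV libraries, entered the test through PPFP cells. Cidec, which fuses droplets into larger ones, was at 0.068, 0.0675 and 0.0335 CPM in EV cells and 8.14, 7.93 and 8.28 CPM in PPFP cells (log2 fold change 7.06, SE 0.26, adjusted p = 3.6e-06). Plin5, the perilipin of tissues that burn fat, was at 1.73, 1.55 and 1.21 CPM in EV cells and 4.25, 7.52 and 6.9 CPM in PPFP cells (log2 fold change 2.05, SE 0.27, adjusted p = 0.00073). G0s2, which inhibits the main triglyceride lipase, was at 59.8, 76.2 and 57 CPM in EV cells and 181, 237 and 246 CPM in PPFP cells (log2 fold change 1.78, SE 0.16, adjusted p = 0.00011). In all 3 cases every PPFP library exceeded every EV library, and for Plin5 the first PPFP library was the lowest of its group. Plin1 and Plin2 completed the role.

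The lipases changed less. Lipe, hormone-sensitive lipase, had a log2 fold change of 0.83 and Pnpla2, adipose triglyceride lipase, 0.61. Angptl4, a secreted inhibitor of lipoprotein lipase and a known PPAR target, was at 50.4, 30.5 and 34 CPM in EV cells and 178, 188 and 186 CPM in PPFP cells (log2 fold change 2.27, SE 0.18, adjusted p = 7.3e-05). The fatty acid uptake role contained no gene that rose: Acsl3, Slc27a4 and Acsl1 fell, with -1.14, -0.84 and -0.42, and the other 3 tested members did not pass. Of 6 glycerol genes 3 rose, and Gpd1, which makes glycerol phosphate for triglyceride, was at 200.3, 174 and 179 CPM in EV cells and 955, 920.4 and 962 CPM in PPFP cells.

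Of 7 fuel-switch genes 6 rose, though Ucp1 and Ucp3, near 0 in EV cells, entered the test through PPFP cells. Ucp1, the uncoupling protein of brown fat, was at 0.102, 0 and 0.101 CPM in EV cells and 113, 76.4 and 74.9 CPM in PPFP cells (log2 fold change 10.25, SE 0.39, adjusted p = 3.8e-06). Pdk4, the kinase that turns off pyruvate oxidation, was at 11.1, 11.2 and 8.68 CPM in EV cells and 33.5, 38.3 and 37.5 CPM in PPFP cells (log2 fold change 1.81, SE 0.13, adjusted p = 4.1e-05). Ucp2 was at 346, 267 and 218 CPM in EV cells and 435, 574 and 558 CPM in PPFP cells (log2 fold change 0.91, SE 0.18, adjusted p = 0.0050). Ucp3 had 2 counts in all EV libraries together and 1.85, 3.04 and 2.89 CPM in PPFP cells, a ratio of 115 (95% counting interval 31.3 to 952). The order among PPFP libraries was not shared, since library 1 was the highest for Ucp1 and the lowest for Pdk4 and Ucp3. Pdk1 was the member that did not pass (-0.42, adjusted p = 0.070).

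Of 5 tested adipokines and other adipocyte markers 3 rose, all above 2-fold: Cfd and Cav1, given above, and Adipoq. Cav1, with no count in EV cells, entered the test through PPFP cells. Adipoq, adiponectin, was at 2.96, 2.36 and 1.11 CPM in EV cells and 4.36, 4.7 and 4.66 CPM in PPFP cells (log2 fold change 1.09, SE 0.32, adjusted p = 0.027), and this call was lost without EV replicate 2, PPFP replicate 2 or PPFP replicate 3 (adjusted p 0.0557 to 0.0668), in the fit of all 12 libraries (0.0649) and relative to the median of its chromosome (0.89, adjusted p = 0.0625). Of the separate list of 8 adipocyte cell markers, Adipoq, Cfd, Cidec, Lipe and Plin1 could be tested and rose, Cidec and Plin1 again entering through PPFP cells. The adipocyte markers Lep, Retn and Fabp4 were listed at 0 in all 6 libraries. The summed level of the adipocyte markers was 26.3 to 31.4 CPM in EV cells and 754 to 787 CPM in PPFP cells, and Cfd accounts for most of it. In bulk RNA, a change in the share of cells that express a gene and a change in its level per cell cannot be told apart.

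PPARG and its retinoid X partner bind a direct repeat of AGGTCA with 1 base between the copies. The letters AGGTCANAGGTCA were searched on both strands, with up to 2 mismatches outside the N, in RefSeq promoter windows of GRCr8 that run from 250 bases before to 50 bases after the start. The short PAX core GTCANGC was searched in the same windows, and since both motifs hold the letters GTCA their matches can overlap. A promoter was found for 8325 of the tested genes. The repeat was present in 4.36% of 551 promoters of genes higher above 2-fold, 3.01% of 565 of genes lower above 2-fold, 2.59% of 7209 of the others and 3.71% of all 27457 promoters. That order was not kept with at most 1 mismatch, where the shares were 0.363%, 0.531%, 0.416% and 0.463%. The core GTCANGC was present in 11.3%, 9.91%, 12.2% and 9.89% of the same groups. These shares describe windows of letters and show no binding.

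Over the whole windows the repeat was present in 1 of 31 tested promoters of the lipid target list (3.23%), against 2.74% of all tested genes. It was present in 4 of 23 of fatty acid oxidation and 3 of 23 of the peroxisome. For thyroid hormone production it was 0 of 19, and for thyroid transcription factors 1 of 7. These counts include genes that did not pass the test. In these 5 lists, 5 genes that passed the test had a match to the repeat wholly before the start. Shown are 4 of them, to set the letters beside the measured change, with the 250 bases before the start read 5′ to 3′ on the strand of the gene and the match to the repeat in capitals. Ucp3 (chr1:164227660-164227909, plus strand) is the uncoupling protein given above, with a match of 2 mismatches that begins 57 bases before the start:
Ucp3: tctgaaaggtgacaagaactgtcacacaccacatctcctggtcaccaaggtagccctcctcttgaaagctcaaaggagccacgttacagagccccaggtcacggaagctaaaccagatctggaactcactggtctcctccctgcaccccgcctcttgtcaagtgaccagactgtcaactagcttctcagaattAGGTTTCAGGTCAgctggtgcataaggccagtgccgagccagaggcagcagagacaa
Acadvl (chr10:55236706-55236955, minus strand) is the very-long-chain acyl-CoA dehydrogenase, with a match of 1 mismatch that begins 17 bases before the start:
Acadvl: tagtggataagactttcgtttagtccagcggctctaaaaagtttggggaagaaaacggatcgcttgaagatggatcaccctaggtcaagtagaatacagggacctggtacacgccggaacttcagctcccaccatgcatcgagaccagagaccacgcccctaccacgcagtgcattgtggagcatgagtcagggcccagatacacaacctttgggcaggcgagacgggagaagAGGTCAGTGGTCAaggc
Etfa (chr8:64787966-64788215, minus strand) is the electron transfer flavoprotein that takes electrons from those dehydrogenases, with a match of 2 mismatches on the opposite strand:
Etfa: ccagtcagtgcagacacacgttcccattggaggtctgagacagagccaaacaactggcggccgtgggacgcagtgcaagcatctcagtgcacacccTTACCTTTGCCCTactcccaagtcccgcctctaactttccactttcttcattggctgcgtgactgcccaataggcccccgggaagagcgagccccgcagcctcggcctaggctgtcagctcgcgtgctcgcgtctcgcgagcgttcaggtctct
Thrb (chr15:10461447-10461696, minus strand) is the thyroid hormone receptor given above, with a match of 2 mismatches on the opposite strand:
Thrb: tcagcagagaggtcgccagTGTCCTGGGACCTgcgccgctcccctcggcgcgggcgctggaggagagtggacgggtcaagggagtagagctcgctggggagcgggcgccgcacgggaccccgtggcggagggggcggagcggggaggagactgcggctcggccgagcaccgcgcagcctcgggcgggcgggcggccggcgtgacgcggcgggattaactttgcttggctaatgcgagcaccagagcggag
The fifth, Acot8, a peroxisomal thioesterase on chromosome 3, had a log2 fold change of -0.33 (adjusted p = 0.048), did not pass without any 1 of the 6 libraries (adjusted p 0.058 to 0.159), and stood at 0.01 relative to the median of its chromosome.

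Of 30 tested genes of mitochondrial fatty acid oxidation 15 were higher, 6 were lower and 9 did not pass, with a median of 0.27. Acadvl was at 102, 91.6 and 88.4 CPM in EV cells and 162, 170.4 and 165 CPM in PPFP cells (log2 fold change 0.82, SE 0.08, adjusted p = 0.00021), and Etfa at 84.4, 76 and 87.3 CPM in EV cells and 123, 118 and 132 CPM in PPFP cells (log2 fold change 0.59, SE 0.09, adjusted p = 0.0012). The dehydrogenases of medium and long chains rose by a similar fold: Acadm had a log2 fold change of 1.04 (SE 0.12) and Acadl of 1.04 (SE 0.09). Acadsb, the dehydrogenase of short branched chains, was at 8.29, 9.42 and 4.79 CPM in EV cells and 1.11, 1.77 and 2.03 CPM in PPFP cells (log2 fold change -2.20, SE 0.32, adjusted p = 0.0012) and so ran against the others. The carnitine transferase Cpt1a, which lets fatty acids into mitochondria, had a log2 fold change of -0.39 (adjusted p = 0.0099, and 0.0511 and 0.0616 without PPFP replicate 2 or 3).

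In the peroxisome 11 of 31 members (35.5%) were higher and 5 (16.1%) lower, against 22.0% and 23.1% of all genes. Scp2, a sterol carrier and thiolase, was at 144, 116 and 144 CPM in EV cells and 409.9, 369 and 392 CPM in PPFP cells (log2 fold change 1.54, SE 0.11, adjusted p = 3.7e-05). Phyh, which degrades branched fatty acids, rose with 1.85.

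Of 34 members of the list of fatty acid and sterol synthesis 3 were higher, 15 were lower and 16 did not pass, with a median of -0.28 that was -0.05 without EV replicate 3. The median deviation of the list was 0.19, -0.19 and 0.47 log2 units in EV cells and -0.0088, -0.22 and -0.18 in PPFP cells, so the groups overlapped, and with EV library 3 and PPFP library 1 both left out 4 members were higher and 13 lower. In the sterol role 9 of 20 were lower and none was higher. Dhcr7, a late enzyme of cholesterol synthesis, was at 40.1, 20.8 and 43.8 CPM in EV cells and 9.21, 6.95 and 7.5 CPM in PPFP cells (log2 fold change -2.14, SE 0.28, adjusted p = 0.00071). Hmgcs1, an early enzyme of the pathway, was at 252, 161 and 306 CPM in EV cells and 102, 95.6 and 103 CPM in PPFP cells (log2 fold change -1.26, SE 0.21, adjusted p = 0.0022). Elovl6, which lengthens palmitate, was at 29.5, 18.6 and 32.1 CPM in EV cells and 7.58, 6.31 and 6.08 CPM in PPFP cells (log2 fold change -2.00, SE 0.22, adjusted p = 0.00031). For these 3 genes all PPFP libraries lay below all EV libraries. The exceptions in the fatty acid role were Dgat2, the last enzyme of triglyceride synthesis (1.99, adjusted p = 2.9e-05), Elovl5 (1.44) and malic enzyme Me1 (1.02).

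**Figure D4:**
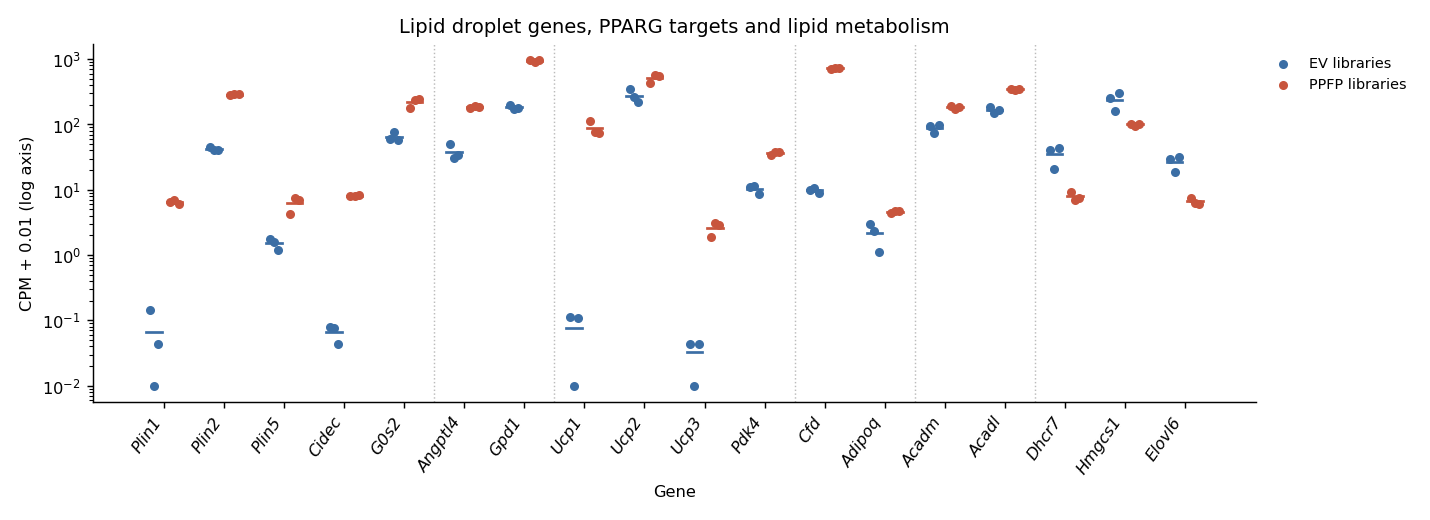
CPM of 18 lipid genes in each library on a log axis, with 0.01 CPM added, 3 EV and 3 PPFP points a gene and a bar at the group mean, and dotted lines between droplet coat, lipid release and glycerol, fuel switches, adipocyte products, oxidation, and synthesis. All genes but Dhcr7, Hmgcs1 and Elovl6 are higher in PPFP cells, and Ucp1 spans from near 0 to 113 CPM.

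Oxidative phosphorylation had 16 of 68 members (23.5%) higher and 4 (5.88%) lower, none of them above 2-fold, and a median of 0.10. All 11 members on chromosome 7 were higher, among them Ndufa12 (0.97), a subunit of complex I, and of the other 57 members 5 were higher. Relative to chromosome medians 10 were higher and 5 lower. In glycolysis and the TCA cycle 12 of 46 (26.1%) were higher and 7 (15.2%) lower, against 22.0% and 23.1% of all genes. The counts became 7 and 8 in the same way. Within that list, pyruvate carboxylase Pc was at 110.0, 113 and 108 CPM in EV cells and 402, 404 and 390.1 CPM in PPFP cells (log2 fold change 1.85, SE 0.07, adjusted p = 3.9e-06), and Aco1, a cytosolic aconitase that also senses iron, was at 202, 177 and 194 CPM in EV cells and 518, 483 and 466 CPM in PPFP cells (log2 fold change 1.36, SE 0.09, adjusted p = 2.6e-05). Slc2a4, the insulin-responsive glucose transporter, fell with -4.14, and Eno2, an enolase, with -1.51.

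Of 57 tested antioxidant genes 25 (43.9%) were higher, against 22.0% of all genes, and 7 were lower, with a median of 0.29. Part of this list overlaps genes that the study selected on these same samples, so its direction is not independent evidence. Of 17 peroxidases and thioredoxin genes 11 were higher and 1 lower. Ggt6, of the family that breaks glutathione down outside the cell, was at 1.7, 0.642 and 0.804 CPM in EV cells and 38.3, 30.9 and 30.2 CPM in PPFP cells (log2 fold change 4.98, SE 0.31, adjusted p = 2.2e-05). Gstm2, a glutathione transferase, was at 12.2, 8.1 and 6.7 CPM in EV cells and 88.1, 86.2 and 88.1 CPM in PPFP cells (log2 fold change 3.28, SE 0.21, adjusted p = 2.4e-05). Gstt3, of another class of transferase, moved the other way, with 6.52, 2.9 and 6.33 CPM in EV cells and 0.185, 0.413 and 0.431 CPM in PPFP cells (log2 fold change -3.93, SE 0.45, adjusted p = 0.00036). Gstm genes are close relatives in sequence, so reads may be split among them. Among 19 cytochrome P450 genes 8 (42.1%) were higher and 4 (21.1%) lower. Cyp4a8, of the fatty acid omega-hydroxylase family that PPARs control, was at 0.102, 0.203 and 0.067 CPM in EV cells and 5.18, 8.95 and 7.89 CPM in PPFP cells (log2 fold change 5.84, SE 0.39, adjusted p = 3.0e-05), and Cyp2f4 at 19.9, 21.5 and 8.44 CPM in EV cells and 2.96, 3.16 and 2.76 CPM in PPFP cells (log2 fold change -2.49, SE 0.35, adjusted p = 0.00097).

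Of 46 tested interferon-stimulated genes 25 (54.3%) were higher and 7 lower, with a median of 0.47. Gbp5 was at 1.19, 0.878 and 1.11 CPM in EV cells and 16.1, 26.9 and 27.6 CPM in PPFP cells (log2 fold change 4.47, SE 0.27, adjusted p = 2.0e-05). Mx1, a GTPase that blocks viruses, was at 1.16, 0.912 and 0.335 CPM in EV cells and 5.84, 7.03 and 7.93 CPM in PPFP cells (log2 fold change 3.11, SE 0.37, adjusted p = 0.00045). Ifi47, another induced GTPase, was at 0.272, 0.27 and 0.0335 CPM in EV cells and 4.44, 4.7 and 4.61 CPM in PPFP cells (log2 fold change 4.55, SE 0.41, adjusted p = 0.00013). These genes were close to 1 CPM or below in EV cells and rose in each PPFP library. The list was not uniform, since Lgals3bp, a secreted glycoprotein, was at 922, 842 and 769 CPM in EV cells and 196, 219 and 219 CPM in PPFP cells (log2 fold change -2.00, SE 0.10, adjusted p = 9.6e-06), and the oligoadenylate synthetases Oas1a and Oas1i fell with -2.0 and -1.58. Oas1 genes are near copies of one another, which makes their individual counts uncertain. Antigen presentation had 10 of 31 members (32.3%) higher and 2 (6.45%) lower, against 22.0% and 23.1% of all genes. RT1-M3-1, a class I gene whose near relatives share sequence with it, fell with -1.47.

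Complement and coagulation genes changed in both directions, 11 of 22 higher and 7 lower, 14 of them above 2-fold. C1r, which starts the classical pathway, was at 82, 74.2 and 58.1 CPM in EV cells and 312, 315 and 307 CPM in PPFP cells (log2 fold change 2.12, SE 0.13, adjusted p = 2.1e-05), while C2 of the same pathway was at 16.5, 19.1 and 13.6 CPM in EV cells and 1.81, 2.78 and 2.54 CPM in PPFP cells (log2 fold change -2.78, SE 0.21, adjusted p = 5.2e-05). F10, coagulation factor X, was at 14, 12.1 and 9.01 CPM in EV cells and 105, 117 and 118 CPM in PPFP cells (log2 fold change 3.28, SE 0.16, adjusted p = 9.6e-06), while F2, prothrombin, was at 5.1, 5.71 and 4.39 CPM in EV cells and 0.407, 0.489 and 0.259 CPM in PPFP cells (log2 fold change -3.69, SE 0.26, adjusted p = 3.9e-05). Members of one cascade thus stood on both sides. The serpins had 6 of 12 higher and 3 lower, and the other protease inhibitors 1 of 9 higher and 6 lower. Among these gains Serpinb5, Serpina3n and Fetub, with few or no counts in EV cells, entered the test through PPFP cells. Serpinb5 (maspin) had no count in EV cells and 25, 22.6 and 24.7 CPM in PPFP cells, at least 713-fold higher, and Fetub, a fetuin that inhibits proteases, had none and 6.81, 7.18 and 7.5 CPM, at least 212-fold higher. Serpina3n had 2 counts in all EV libraries and 27.9, 42 and 43.5 CPM in PPFP cells, a ratio of 1666 (95% counting interval 461 to 13763). Serpini1, neuroserpin, fell with -2.96 and Wfdc2, a secreted inhibitor of epithelia, with -2.74.

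Of 43 listed chemokines and cytokines 17 could be tested, and 5 (29.4%) were higher and 3 (17.6%) lower, against 22.0% and 23.1% of all genes. Csf3, the granulocyte colony-stimulating factor, was at 0.204, 0.338 and 0.369 CPM in EV cells and 12.4, 14 and 12.2 CPM in PPFP cells (log2 fold change 5.39, SE 0.22, adjusted p = 4.6e-06). Spp1, osteopontin, was at 9.58, 7.4 and 7.5 CPM in EV cells and 0.259, 0.188 and 0.216 CPM in PPFP cells (log2 fold change -5.18, SE 0.24, adjusted p = 7.3e-06). The 2 genes moved by a similar fold in opposite directions. Tnfsf10, the death ligand TRAIL, rose with 2.67, and Cp, ceruloplasmin, with 1.32.

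In prostaglandin and arachidonate metabolism 9 of 28 members were higher and 7 lower. Hpgds was at 0.85, 0.777 and 1.54 CPM in EV cells and 31.8, 37 and 35.7 CPM in PPFP cells (log2 fold change 5.04, SE 0.24, adjusted p = 7.3e-06), the gain of one prostaglandin D2 synthase beside the loss of the other, Ptgds, which had no count in PPFP cells. Of the phospholipases, Pla2g2d was higher and Pla2g5 lower, with 4.72 and -1.28.

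The enzymes of retinoic acid synthesis included some of the largest gains. Dhrs9, which oxidises retinol to retinal, was at 0.034, 0.101 and 0.168 CPM in EV cells and 107, 123 and 125 CPM in PPFP cells (log2 fold change 10.13, SE 0.24, adjusted p = 5.4e-07). Aldh1a1, which takes retinal to retinoic acid, was at 42.4, 38 and 31.5 CPM in EV cells and 503, 453 and 471 CPM in PPFP cells (log2 fold change 3.67, SE 0.13, adjusted p = 3.5e-06). Both consecutive steps were higher in each PPFP library, whereas of the 12 tested genes of retinoid metabolism 4 were higher and 3 lower. Of 21 nuclear receptors 8 were higher and 7 lower. Esr1, estrogen receptor alpha, had 2 counts in all EV libraries and 12.5, 7.93 and 7.5 CPM in PPFP cells, a ratio of 418 (95% counting interval 115 to 3460.1). Esrrb, an orphan receptor related to it, was at 16.7, 22.1 and 9.92 CPM in EV cells and 0.222, 0.15 and 0.388 CPM in PPFP cells (log2 fold change -6.00, SE 0.44, adjusted p = 4.5e-05). Nr3c2, the mineralocorticoid receptor, and Vdr, the vitamin D receptor, fell with -1.0 and -1.19, and Nr2f2 rose with 1.09.

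The signalling pathways of development had more members lower than higher. In the BMP and TGF-beta list 27 of 48 tested members fell and 4 rose (56.3% and 8.33%, against 23.1% and 22.0% of all genes), with a median of -0.45, and relative to chromosome medians 22 fell and 3 rose. Bmp4, a ligand, had 8.94, 7.09 and 4.66 CPM in EV cells and 3 counts in all PPFP libraries together, a ratio of EV to PPFP of 176 (95% counting interval 60.1 to 857). Chrdl1, a secreted antagonist of BMPs, was at 3.94, 3.11 and 1.84 CPM and had no count in PPFP cells, at least 75.8-fold lower. Inha, the inhibin alpha chain, was at 4.32, 3.92 and 2.81 CPM in EV cells and 0, 0.113 and 0.129 CPM in PPFP cells (log2 fold change -5.48, SE 0.50, adjusted p = 0.00014). Ligands and antagonists alike were among the losses, and Bmpr1b, a receptor, was the largest gain with 0.51, 0.979 and 0.57 CPM in EV cells and 7.95, 6.88 and 7.85 CPM in PPFP cells (log2 fold change 3.45, SE 0.26, adjusted p = 5.0e-05).

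In the Wnt list 16 of 33 members fell and 7 rose, with a median of -0.37. Of 6 ligands 5 fell. Wnt4 was at 383, 369.7 and 492 CPM in EV cells and 58.3, 69.5 and 69 CPM in PPFP cells (log2 fold change -2.66, SE 0.14, adjusted p = 1.1e-05). Wnt5b was at 2.75, 3.24 and 2.04 CPM in EV cells and 0.407, 0.0752 and 0.216 CPM in PPFP cells (log2 fold change -3.49, SE 0.44, adjusted p = 0.00062). Wnt7a was the ligand that rose, at 0.136, 0.0675 and 0.0335 CPM in EV cells and 2.37, 2.71 and 3.06 CPM in PPFP cells (log2 fold change 5.02, SE 0.38, adjusted p = 5.1e-05). Wif1, a secreted inhibitor of Wnt, fell with -4.03 (adjusted p = 2.6e-05), and Axin2, a target of beta-catenin, was at 41.9, 41.5 and 52.4 CPM in EV cells and 143, 96.3 and 100.2 CPM in PPFP cells (log2 fold change 1.32, SE 0.17, adjusted p = 0.00073). The feedback gene and most ligands thus moved in opposite directions.

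Hedgehog genes had 6 of 8 members lower and none higher. Gli2, the transcription factor of the pathway, was at 90.9, 100.2 and 81.6 CPM in EV cells and 31.3, 37.3 and 33 CPM in PPFP cells (log2 fold change -1.43, SE 0.11, adjusted p = 6.2e-05), and the ligand Dhh at 3.26, 3.31 and 3.38 CPM in EV cells and 0.333, 0.677 and 0.517 CPM in PPFP cells (log2 fold change -2.70, SE 0.26, adjusted p = 0.00019). Notch genes had 7 of 22 (31.8%) lower and 2 (9.09%) higher, against 23.1% and 22.0% of all genes, and the receptor Notch1 fell with -0.94 (adjusted p = 0.00043). Of 6 FGF receptors and co-receptors 4 fell and 1 rose. Fgfr2, needed for the thyroid to form, was at 467, 543 and 425 CPM in EV cells and 223, 212 and 209 CPM in PPFP cells (log2 fold change -1.16, SE 0.11, adjusted p = 0.00013), and Fgfr3 at 40.1, 44.7 and 40.1 CPM in EV cells and 16.9, 15.4 and 15 CPM in PPFP cells (log2 fold change -1.40, SE 0.10, adjusted p = 3.5e-05). The ligand Fgf1 was at 9.45, 11 and 6.97 CPM in EV cells and 23.8, 20.3 and 22.6 CPM in PPFP cells (log2 fold change 1.28, SE 0.17, adjusted p = 0.00084).

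Growth factor signalling was mixed. In the IGF and insulin list 3 of 16 members (18.8%) rose and 6 (37.5%) fell, against 22.0% and 23.1% of all genes. Igfbp5, a binding protein that thyroid cells secrete, was at 738, 737 and 745 CPM in EV cells and 158, 189.7 and 193 CPM in PPFP cells (log2 fold change -2.04, SE 0.10, adjusted p = 8.9e-06), and Igfbp4 at 12, 9.46 and 19.4 CPM in EV cells and 1.22, 4.25 and 3.88 CPM in PPFP cells (log2 fold change -2.13, SE 0.45, adjusted p = 0.0065). Of 34 other receptor tyrosine kinases and ligands 7 rose and 13 fell. Kitlg, the ligand of KIT, was at 3.74, 3.85 and 5.23 CPM in EV cells and 39.3, 38.8 and 37.9 CPM in PPFP cells (log2 fold change 3.18, SE 0.15, adjusted p = 6.8e-06) and lies on chromosome 7 within its next highest window of 25 genes, whose median was 0.86. Hgf, the ligand of MET, rose with 4.03. Bdnf, a neurotrophin, was at 3.4, 5.03 and 1.47 CPM in EV cells and 0.148, 0.0376 and 0 CPM in PPFP cells (log2 fold change -5.57, SE 0.77, adjusted p = 0.00090), and Ret, a receptor rearranged in papillary thyroid carcinoma, at 6.08, 7.19 and 7.6 CPM in EV cells and 0.555, 0.601 and 0.776 CPM in PPFP cells (log2 fold change -3.43, SE 0.21, adjusted p = 2.2e-05). Of 33 genes of MAPK feedback and immediate early response 13 fell and 5 rose (8 and 6 relative to chromosome medians). Spry1, which restrains receptor tyrosine kinases, was at 13.7, 16.8 and 13.3 CPM in EV cells and 117, 92.3 and 95.6 CPM in PPFP cells (log2 fold change 2.80, SE 0.14, adjusted p = 9.6e-06), Myc rose with 1.54 and Atf3 fell with -2.05.

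Axon guidance genes, which also steer epithelial cells, had 21 of 44 members lower and 10 higher. Ephb6, an ephrin receptor without kinase activity, was at 6.02, 5.03 and 5.03 CPM in EV cells and 0.074, 0.15 and 0 CPM in PPFP cells (log2 fold change -6.02, SE 0.44, adjusted p = 4.5e-05). Unc5b, a netrin receptor, was at 4.66, 4.56 and 2.58 CPM in EV cells and 0.185, 0.226 and 0.259 CPM in PPFP cells (log2 fold change -4.12, SE 0.36, adjusted p = 0.00010), while the ligand Ntn1 was at 0.102, 0.0338 and 0.067 CPM in EV cells and 5.92, 6.95 and 5.43 CPM in PPFP cells (log2 fold change 6.41, SE 0.32, adjusted p = 9.1e-06). Robo3 rose with 2.56. Of 28 genes of synaptic vesicles and exocytosis 11 (39.3%) fell and 4 (14.3%) rose, against 23.1% and 22.0% of all genes. Sv2a, a vesicle glycoprotein, was at 54.1, 43.8 and 39.1 CPM in EV cells and 6.77, 13.7 and 12.1 CPM in PPFP cells (log2 fold change -2.07, SE 0.26, adjusted p = 0.00054), and Syt5, a calcium sensor of vesicle fusion, at 41.8, 33.2 and 42.6 CPM in EV cells and 9.51, 9.47 and 9.44 CPM in PPFP cells (log2 fold change -2.05, SE 0.12, adjusted p = 1.9e-05). Among 50 ion channel genes 17 (34.0%) were higher and 19 (38.0%) lower. Kcnk3, a background potassium channel, was at 10.9, 7.36 and 6.83 CPM in EV cells and 72.2, 83.8 and 80.5 CPM in PPFP cells (log2 fold change 3.23, SE 0.19, adjusted p = 1.6e-05), Kcnh2 rose with 2.61 and Kcnd1 fell with -3.78.

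The matrix list had one of the lowest medians, -0.69, with 30 of 62 members lower and 16 higher, and 30 and 15 relative to chromosome medians. Among 17 proteoglycans and glycoproteins 10 fell, all by more than 2-fold, and 5 rose. Fbln5, which assembles elastic fibres, was at 14.9, 14.9 and 8.48 CPM in EV cells and 0.296, 0.226 and 0.129 CPM in PPFP cells (log2 fold change -5.82, SE 0.37, adjusted p = 2.4e-05), and its partner Eln, elastin, was at 3.4, 1.86 and 1.61 CPM in EV cells with 2 counts in all PPFP libraries, a ratio of EV to PPFP of 87.7 (95% counting interval 24 to 729). Matn4, an adaptor of matrix filaments, was at 13.4, 13.9 and 9.98 CPM in EV cells and 0.666, 0.564 and 0.69 CPM in PPFP cells (log2 fold change -4.27, SE 0.21, adjusted p = 9.6e-06). Col5a1, which sets the width of collagen fibrils, was at 105, 79.6 and 87.9 CPM in EV cells and 3.33, 7.52 and 6.51 CPM in PPFP cells (log2 fold change -3.97, SE 0.28, adjusted p = 3.9e-05). Plod2, which prepares collagen for crosslinks, had 8.22, 8.07 and 6.67 CPM in EV cells and 2 counts in all PPFP libraries, a ratio of EV to PPFP of 294 (95% counting interval 81 to 2432).

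Fibronectin ran against these losses. Fn1 was at 249, 244 and 218 CPM in EV cells and 2155, 2674 and 2592 CPM in PPFP cells (log2 fold change 3.38, SE 0.12, adjusted p = 3.5e-06), a 10.4-fold gain. Col7a1, the anchoring fibril of skin, was at 2.38, 1.62 and 1.07 CPM in EV cells and 7.55, 29.8 and 21.8 CPM in PPFP cells (log2 fold change 3.54, SE 0.53, adjusted p = 0.0014), with PPFP library 1 well below the other PPFP libraries. Mmp19, a matrix metalloproteinase, was at 3.47, 3.78 and 3.05 CPM in EV cells and 31.7, 39.8 and 38.4 CPM in PPFP cells (log2 fold change 3.41, SE 0.14, adjusted p = 4.8e-06). The integrins, which bind this matrix, had 6 of 12 members higher and 4 lower. Itga7, a laminin receptor, was at 0.272, 0.709 and 0.201 CPM in EV cells and 38.4, 70.4 and 70.3 CPM in PPFP cells (log2 fold change 7.23, SE 0.43, adjusted p = 1.8e-05), and Itga1, a collagen receptor, at 5.3, 4.8 and 5.8 CPM in EV cells and 24.3, 27.9 and 27.6 CPM in PPFP cells (log2 fold change 2.33, SE 0.12, adjusted p = 1.2e-05). Ceacam1 rose with 2.86, and Cdh16, the kidney and thyroid cadherin, was at 120.3, 142 and 99.5 CPM in EV cells and 28.8, 36.3 and 37 CPM in PPFP cells (log2 fold change -1.83, SE 0.16, adjusted p = 9.5e-05).

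Of 22 tested cytoskeletal and epithelial genes 9 fell and 6 rose. Among the largest falls, Myl9, the regulatory light chain of smooth muscle and non-muscle myosin, was at 149, 157 and 98.1 CPM in EV cells and 0.111, 0.113 and 0.172 CPM in PPFP cells (log2 fold change -9.97, SE 0.31, adjusted p = 2.6e-06). Cnn1, calponin, was at 46.9, 37.1 and 29.8 CPM in EV cells and 0.037, 0 and 0.216 CPM in PPFP cells (log2 fold change -8.84, SE 0.46, adjusted p = 1.1e-05). Tpm1, tropomyosin, was at 1195, 1201 and 839.8 CPM in EV cells and 285, 268 and 286 CPM in PPFP cells (log2 fold change -1.95, SE 0.15, adjusted p = 5.3e-05). For Myl9 the 3 PPFP libraries stood below 0.2 CPM although the lowest EV library was at 98.1 CPM. Ehf and Elf3, epithelial ETS factors, rose with 2.79 and 1.61. Krt8, a keratin of simple epithelia, was at 4.21, 2.84 and 3.72 CPM in EV cells and 0, 0.15 and 0 CPM in PPFP cells (log2 fold change -5.99, SE 0.62, adjusted p = 0.00024), while Krt23 rose with 2.80.

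**Figure D5:**
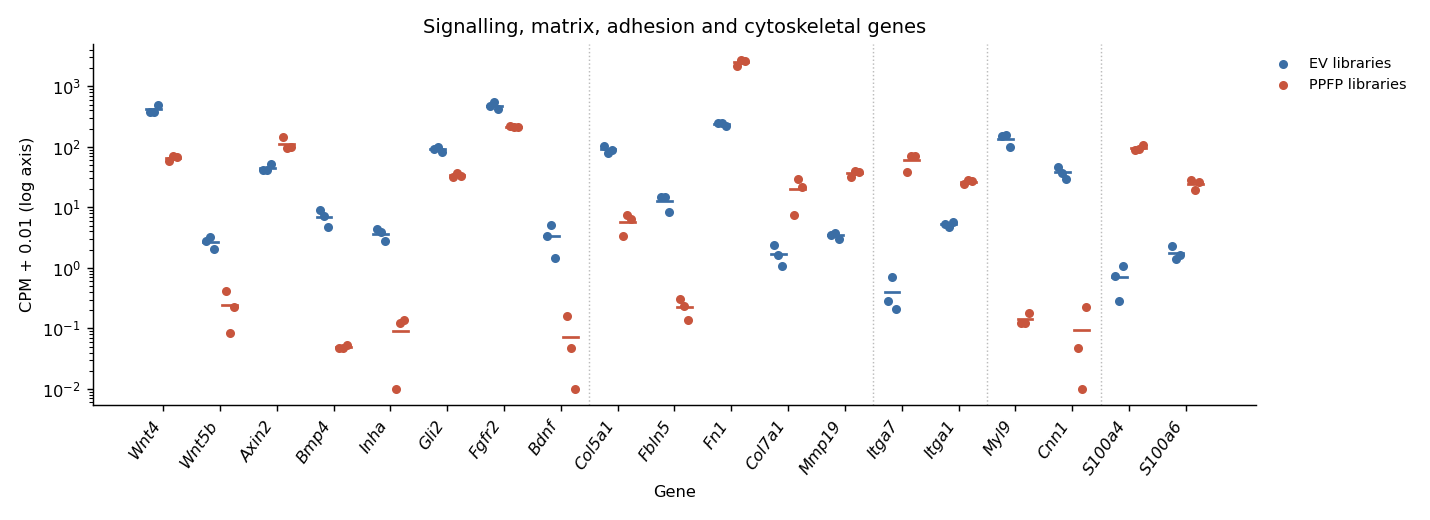
CPM of 19 signalling, matrix, adhesion and cytoskeletal genes in each library on a log axis, with 0.01 CPM added, 3 EV and 3 PPFP points a gene and a bar at the group mean, and dotted lines between the groups of genes. Fn1, Col7a1, Mmp19, Itga7, Itga1, Axin2, S100a4 and S100a6 lie higher in PPFP cells and the others lower, and Myl9 falls from 98.1 CPM or more to below 0.2 CPM.

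Proteasome and chaperone genes had 25 of 79 members higher and 4 lower, 3 of the gains above 2-fold, and 18 and 3 relative to chromosome medians. The groups overlapped in the median deviation of the list from the mean of all libraries, which was -0.12, -0.30 and 0.08 log2 units in EV cells and 0.33, -0.0005 and 0.05 in PPFP cells, with EV library 3 and PPFP library 1 the highest of their groups. With both left out 38 members were higher and 6 lower, and with 1 library left out the higher members ranged from 10 without EV replicate 1 to 37 without EV replicate 3. Hsp90b1 was at 1708, 1164 and 1910.2 CPM in EV cells and 4348, 3624 and 3749 CPM in PPFP cells (log2 fold change 1.29, SE 0.18, adjusted p = 0.0010) and lies on chromosome 7. Hspa4l rose with 1.25. The S100 proteins, small calcium-binding proteins, had 6 of 8 higher and 1 lower. S100a4 was at 0.714, 0.27 and 1.07 CPM in EV cells and 88, 91.8 and 109 CPM in PPFP cells (log2 fold change 7.12, SE 0.32, adjusted p = 6.4e-06), and S100a6 at 2.31, 1.38 and 1.64 CPM in EV cells and 28, 19.5 and 26.3 CPM in PPFP cells (log2 fold change 3.79, SE 0.23, adjusted p = 2.1e-05). Of 33 lysosomal genes 7 (21.2%) were higher and 16 (48.5%) lower, with a median of -0.23. Neu1 (a sialidase) and Tfeb (which switches lysosomal genes on) fell with -1.14 and -1.09. Ribosome biogenesis had 3 of 40 members higher and 3 lower (7.5% each), below the 22.0% and 23.1% of all genes.

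The cell cycle list had a median of 0.30 but 9 of 64 members (14.1%) higher and 3 (4.69%) lower, and none of the 22 mitosis genes passed. Both shares were below the 22.0% and 23.1% of all genes. Its libraries spread within the groups. The median deviation from the mean of all libraries was -0.13, -0.58 and 0.31 log2 units in EV cells and 0.56, -0.08 and -0.04 in PPFP cells. EV library 3 and PPFP library 1 were the highest of their groups, and the groups overlapped. The amino acid stress list ran the other way, with -0.14, 0.53 and -0.33 in EV cells and -0.52, 0.20 and 0.25 in PPFP cells. Of its 48 members 8 (16.7%) were higher and 2 (4.17%) lower, again below the shares of all genes. Cdk2, the kinase of S phase entry, was at 99.4, 73.5 and 115 CPM in EV cells and 342, 223 and 216 CPM in PPFP cells (log2 fold change 1.44, SE 0.22, adjusted p = 0.0016), and Psph, the last enzyme of serine synthesis, at 26, 44.6 and 27.1 CPM in EV cells and 168, 171 and 193 CPM in PPFP cells (log2 fold change 2.44, SE 0.21, adjusted p = 1.0e-04). Both were higher in every PPFP library. Of 27 cell death genes 5 (18.5%) were higher and 4 (14.8%) lower, also below the shares of all genes. One member, Casp1, the protease that matures interleukin 1, was at 5.3, 4.36 and 4.02 CPM in EV cells and 18.5, 17.4 and 18.6 CPM in PPFP cells (log2 fold change 1.99, SE 0.14, adjusted p = 3.6e-05).

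Families named by the stem of their symbol gave a view that did not rest on the lists. Among families of at least 8 tested genes, and against 22.0% higher and 23.1% lower among all genes, the highest shares of genes that rose were in the carbonic anhydrases (Car, 6 of 9), the keratins (Krt, 6 of 9), the subunits of the chaperonin CCT (5 of 8), the S100 and sphingosine phosphate receptor symbols (7 of 12) and the Abcg transporters (5 of 9). Some of the keratins and carbonic anhydrases had only a few counts in EV cells and so entered the test through PPFP cells, and with at least 10 counts in every library neither family kept 8 members. Of the 6 keratins that rose, 4 lie in 1 window of 15 neighbouring genes on chromosome 7, whose median of 1.58 was the highest of such windows. The Abcg count includes near-identical copies of one gene among which reads may be split, so it is uncertain. The highest shares of genes that fell were in the symbols with the stem B, most of them B3 and B4 glycosyltransferases (10 of 20), the LDL receptor relatives (Lrp, 4 of 8), the matrix metalloproteinases (Mmp, 4 of 8), the tetraspanins (Tspan, 6 of 12) and the regulators of G protein signaling (Rgs, 5 of 10). Of the keratins, Krt72 had 1 count in all EV libraries and a ratio of PPFP to EV of 125 (95% counting interval 22 to 4980.4), and Krt75 had 2 counts and a ratio of 28.3 (95% counting interval 7.44 to 241).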

How the data were processed

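The authors sequenced libraries made from total RNA as 50 nt paired reads, with a TruSeq kit that does not mark strand, aligned them to the rat genome rn4 with TopHat2 2.0.11 and counted reads per gene symbol with HTSeq 0.6.1p1 (tool versions from the submitters' processing notes and the study's methods). The deposited values are raw counts, and the authors' own test used edgeR 3.2.4. Overlapping or antisense genes and near-identical copies cannot be separated in such counts. From the counts, the 3 PPFP and 3 EV libraries without pioglitazone were fitted with edgeR 4.0.16 (filterByExpr, TMM, quasi-likelihood test, no covariate, Benjamini-Hochberg over 10264 genes), and the script was tested on simulated data. The lists, the members of the comparison and the tests were chosen with earlier results of these data known. Named genes are the fusion parents, the tested members of both thyroid lists, up to 3 genes in each direction per list with the largest change above 2-fold and a mean of at least 1 CPM, the 10 highest and 10 lowest changes with at least 0.5 CPM in each library, the 6 most abundant in each direction with no count in one group, the 5 largest changes of share in each direction, and the 5 stem families in each direction. Acadvl, Acot8, Acsl1, Adipoq, Angptl4, Cpt1a, Etfa, G0s2, Krt72, Krt75, Lipe, Ndufa12, Notch1, Pdk1, Pdk4, Plin2, Plin5, Pnpla2, Ppara, Ppard, Slc27a4, Ucp2, Ucp3 and the genes that bound windows were chosen after their values were seen. Intervals and floors cover counting error only. Chromosomes and promoters come from RefSeq on GRCr8, matched by symbol, and no position was carried over to rn4. Peaks of the fusion protein (rn4, from cells with pioglitazone) were not used here. Alternatives were the edgeR exact test, DESeq2 1.42.0, RLE factors, library size alone, other filters, all 12 libraries, the replicate block and each library left out, with values relative to chromosome medians and 2 libraries left out together added after the data were seen. Some genes that this rule names are not reported here.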

Additional observations from a re-analysis of the deposited data

How the results depend on the processing

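The counts of changed genes kept within 1.5 times under every alternative but one. With at least 10 counts in every library, 983 genes were called above 2-fold in place of 1496, and 474 were lower in place of 750, since the genes near 0 in one group were left out by that filter. At an adjusted p below 0.05 the count was 4635, and it ran from 3444 to 4880 when each replicate was left out in turn, while the counts above 2-fold ran from 719 to 874 higher and from 701 to 864 lower. The study sequenced the samples of an experiment on shared lanes, but the labels do not tie the replicate numbers to the experiments. The pairing of libraries by experiment is therefore not known here. Libraries of the same number had correlations of -0.28, 0.43 and -0.41, and the closest match of PPFP library 1 was EV library 3 at 0.60. With the replicate block 4050 genes passed, 735 higher and 731 lower above 2-fold. Scaling by library size alone gave 664 higher and 853 lower and moved the median of all genes to -0.08. With 1 replicate left out the splits lay between 719 higher and 811 lower (without PPFP replicate 2) and 874 and 721 (without PPFP replicate 1). DESeq2 gave 741 and 740. With EV library 3 and PPFP library 1 both left out 5615 genes passed. Windows of 15 genes had extremes of -1.14 and 1.58, and windows of 50 genes a highest median of 0.79, in place of -0.70 and 0.95 for 25.

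Among the genes named above, the direction depended on the setting for a few whose change was small. Relative to the median of the chromosome the log2 fold change was -0.0535 for Adcy6, -0.0413 for Crem, -0.11 for Tg, 0.25 for Pax8 and 0.00766 for Acot8. Crem also turned with library size alone (-0.0172), and with 1 replicate left out it ran from -0.0208 without PPFP replicate 3 to 0.23 without PPFP replicate 1. The calls of Adcy6 (adjusted p = 0.0505 without EV replicate 1) and Pde4d (0.0538 without PPFP replicate 3) were near the threshold. Creb1 did not pass with the edgeR exact test (adjusted p = 0.0517) or the replicate block (0.0716). Tg passed with the edgeR exact test (adjusted p = 0.0311) and with DESeq2 (0.0334). Pdk1 passed with the edgeR exact test, library size alone, the replicate block and without EV replicate 1 (adjusted p 0.0218 to 0.0455). Ppara passed relative to the median of its chromosome (-0.83, adjusted p = 0.0165). Of the medians of the gene lists over the alternatives, 655 values moved by less than 1 SD, 65 by more, and 20 took the other sign, all of them in lists whose median lay near 0. Leaving out 1 replicate moved some counts of list members by over 1.5 times: 9 of the oxidative phosphorylation genes were higher without EV replicate 1 in place of 16, 11 of the ion channels without PPFP replicate 2 or 3 in place of 17, 6 of the axon guidance genes without either in place of 10, and 8 of the MAPK genes were lower without PPFP replicate 3 in place of 13. Families of Car, Krt, Mmp and Rgs had fewer than 8 members under the filter of 10 counts and have no value there. Depth limits the genes with a few counts in one group, for which ratios carry wide intervals.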
